A study of Mus musculus with 20 samples.

Results

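Malat1, Neat1, Meg3, Snhg11, Son, Nipbl and Wnk1 are 7 of the 18193 genes that the array annotation names. They form a set because several of them had read lower in immunoprecipitates with iron regulatory protein 1 (IRP1) than in control immunoprecipitates by 1 of their probe sets. A probe set is a group of short array probes read as one value, and these genes have 37 of the 45037 probe sets fitted. Malat1 has 7, Neat1 2, Meg3 11, Snhg11 2, Son 7, Nipbl 5 and Wnk1 3, and each probe set was described on its own. The choice rests on IRP1 minus control, so that difference is given below as a description only, while the difference in level between tissues was not used to choose the genes and was tested. The arrays read RNA recovered from total RNA of whole tissue, so they do not show where in the cell an RNA lies. The genes are called by their names here.

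IRP1 is an RNA-binding protein that holds the iron-responsive element (IRE), a stem-loop in mRNAs of iron metabolism. The study asked which RNAs of mouse tissues are found in IRP1 complexes. Total RNA (50 µg) from C57BL6/J mice of mixed sex was combined with His-tagged recombinant IRP1 made in E. coli and with a rabbit polyclonal anti-IRP1 antibody in the IRP1 reaction. The control reaction had the same RNA and antibody without the recombinant protein. Each of 5 tissues gave 2 IRP1 arrays and 2 control arrays, 20 arrays in 10 groups. Duodenum, liver and spleen came from mice on an iron-poor diet (below 10 mg/kg) for 21 days from weaning, and bone marrow and brain from mice of 8 to 10 weeks on an iron-normal diet. Diet and age therefore go with tissue and cannot be told apart from it. RNA was pooled within a tissue, from 6 mice for bone marrow and brain and from 4 for 1 duodenum sample, with no number given for the others. The p-values below measure the spread between reactions and arrays, which may be technical, and not the spread between mice.

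Malat1 and Neat1 are long noncoding RNAs made from neighbouring genes. Malat1 collects in nuclear speckles, bodies rich in splicing factors, and Neat1 is the architectural RNA of paraspeckles. Meg3 is a noncoding RNA of the imprinted Dlk1-Dio3 region that is made from the maternal chromosome and is abundant in neurons. Snhg11 is a small nucleolar RNA host gene known for its expression in neurons. Son is an mRNA for a large scaffold protein of nuclear speckles that helps splicing, Nipbl encodes the loader that puts cohesin on chromosomes, and Wnk1 encodes a kinase that regulates chloride cotransport. By the RefSeq table, Malat1 and Neat1 lie on chromosome 19, Meg3 on 12, Snhg11 on 2, Son on 16, Nipbl on 15 and Wnk1 on 6. The first 4 genes are listed there as long noncoding RNAs and the other 3 as protein coding.

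The promoter of Meg3 is known to depend on a cyclic AMP response element, and the core of that element was searched for as the letters TGACGTCA (a palindrome, so that both strands read alike) in the RefSeq promoters of GRCm38.p6, each 300 bases long. The table held 6 promoters for 5 of the 7 genes. The Meg3 promoter had 1 match and the other 5 had none. The match is shown because Meg3 is the gene with the most probe sets here and a large tissue difference. The whole stretch shown lies on the plus strand at chr12:109540928-109540957. Capitals within it mark the motif, which begins 57 bases before the start site.
Meg3 promoter: gcagaatgcgcTGACGTCAaagaccacccc
The same letters were found in 588 of 32851 promoters of this length (1.79%). The match is a description of the sequence, and no binding was measured here.

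All values are log2 signals as deposited, in the range 2.63 to 15.35. A probe set was called dim where all 10 of its group means lay under 5.56, the median of all values, and 4 of the 37 were dim (1 of Malat1 and 3 of Son). Signals of different probe sets are not comparable as amounts of RNA, so orders are given within a probe set. The brightest probe set of a gene is the one with the highest mean over the 20 arrays. For Snhg11 it is 1437311_at, although 1434292_at reads higher in brain. The 5 probe sets with names ending in _s_at and the 2 ending in _x_at, Malat1 1418189_s_at and Meg3 1439380_x_at among them, may also read related transcripts. Markers of 1 cell type for each tissue were highest in that tissue. Their mean signals were 13.48 for enterocytes in duodenum, 13.28 for hepatocytes in liver, 9.67 for B and T cells in spleen, 13.20 for neutrophil precursors in bone marrow and 10.78 for neurons in brain. Erythroid markers stood at 10.95 in spleen and 12.46 in bone marrow. Glia markers averaged 8.56 in brain, but Mbp (8.09 against 8.17 in the other controls) and Gfap (6.30 against 6.28) were flat by their brightest probe sets. Of 12 hepatocyte probe sets, 4 were called higher in brain and 7 lower. Markers of pancreatic acinar cells stood at 13.06 in duodenum, with arrays between 11.85 and 13.93, and at 8.85 in spleen. The 3' minus 5' difference of actin, a sign of RNA quality, lay between 2.03 and 4.38 and was highest in bone marrow. Hybridization controls were low on the second IRP1 and the second control array of spleen and on the first control array of bone marrow.

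The level of a gene in a tissue is taken here from the control reactions, which held no recombinant IRP1. Their arrays read RNA recovered from the control immunoprecipitates, not the total RNA put in. How closely this signal follows the amount of an RNA in the tissue was not tested. Fewer cells of a type and less RNA per cell cannot be told apart in such bulk RNA. Of the 37 probe sets, 31 differed among the 5 tissues by limma's F-test at an adjusted p under 0.05, against 63.1% of all probe sets. Brain was higher than the mean of the other 4 tissues for 18 probe sets, against 19.6% of all, and lower for 6, against 25.3% of all. In either direction 24 of the 37 were called in brain, against 44.9% of all. Meg3 and Snhg11 supplied 13 of the 18 higher calls, which is every probe set they have, and Malat1 the other 5. The 6 lower calls were 1 of Neat1, 3 of Nipbl and 2 of Son, while none of Wnk1 was called. Without the second brain control array the number of lower calls was 1, the Neat1 probe set.

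Between single tissues, 157 of the 370 tests on these probe sets were called (42.4%), against 33.8% over all probe sets. The comparisons with brain had the most calls. Of the 37, brain was called against bone marrow for 28 (41% of all probe sets), against duodenum for 22 (39.6%), against spleen for 22 (38.2%) and against liver for 19 (40.5%). All 11 Meg3 and 2 Snhg11 probe sets were called in each of these brain comparisons. Probe sets of 1 gene were counted separately, so 2 genes weigh heavily in the brain counts. Duodenum differed from spleen for 16 (32.3%), from liver for 15 (27.5%) and from bone marrow for 9 (29.6%). Spleen differed from liver for 11 (38.4%) and bone marrow from liver for 11 (32.5%), while bone marrow and spleen differed for 4 (18.4%).

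**Figure D1:**
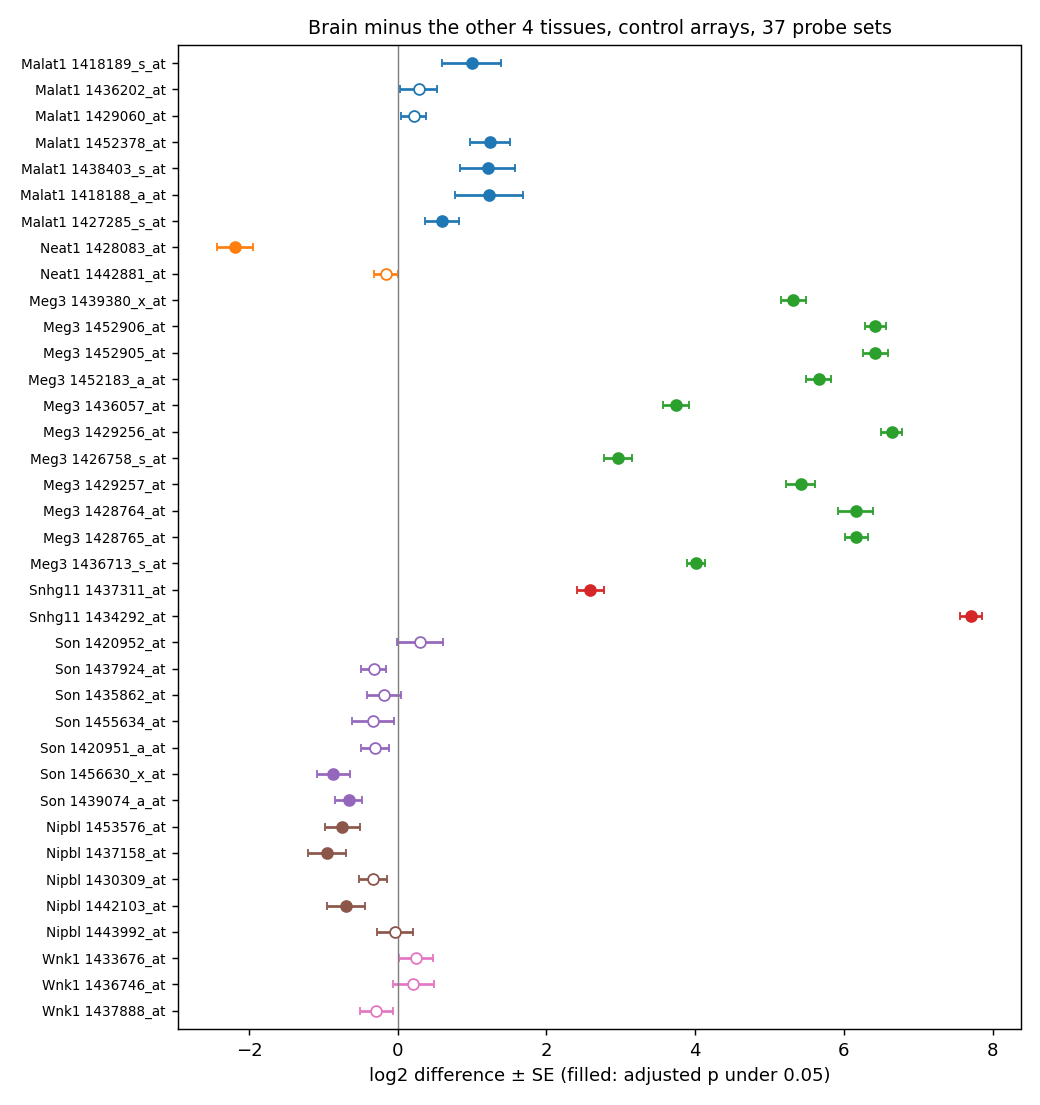
Log2 signal in brain minus the mean of the other 4 tissues in control arrays (x axis, log2 difference with its standard error) for each of the 37 probe sets (y axis), filled where the adjusted p is under 0.05. All 11 Meg3 and both Snhg11 probe sets lie at 2.59 or more, Neat1 1428083_at lies at -2.19, and the probe sets of Son, Nipbl and Wnk1 lie between -0.95 and 0.30.

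Meg3 was higher in brain by all 11 probe sets, with log2 differences between 2.96 and 6.64. Its brightest probe set, 1439380_x_at, read 13.48 and 13.32 in the brain controls, against a lowest of 7.35, a median of 7.86 and a highest of 9.11 in the 8 other controls. The difference was 5.32 ± 0.16 (SE; limma adjusted p = 6.417e-14). Probe set 1429256_at, with the largest Meg3 difference, read 12.41 and 12.50 in the brain controls and between 5.62 and 6.05 in the others, a difference of 6.64 ± 0.14 (SE; limma adjusted p = 1.4e-15). The other controls of 1429256_at lie close to 5.56, the median of the table, where a signal may be background. Those of 1428765_at (at most 4.42) and 1436713_s_at (at most 3.76) lie under it. Brain did not overlap the other tissues by any Meg3 probe set. The share of all probe sets without such overlap was not counted. The calls held without each of the 20 arrays in turn. Neuron markers were at 10.78 in brain and between 4.98 and 5.56 in the other tissues, and their part in the Meg3 level was not tested.

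Outside brain, few of the 11 Meg3 probe sets differed between tissues. Duodenum was called against liver by 2 (27.5% of all probe sets), against spleen by 3 (32.3%) and against bone marrow by 2 (29.6%). Bone marrow was called against liver by 1 (32.5%) and against spleen by 1 (18.4%), and spleen against liver by 0 (38.4%). By 1439380_x_at the duodenum controls read 9.11 and 8.98 and the liver controls 8.07 and 7.89, a difference of 1.06 ± 0.21 (SE; limma adjusted p = 0.0008314). By 1452905_at the duodenum controls read 8.26 and 7.82, against 6.89 and 6.92 in liver, a difference of 1.13 ± 0.22 (SE; limma adjusted p = 0.0008022). The same probe set read 6.69 and 6.42 in spleen, against 5.22 and 5.58 in bone marrow, and this step was also called (1.15 ± 0.22, limma adjusted p = 0.001333). The order by 1452905_at was therefore brain, duodenum, liver, spleen, bone marrow, with liver and spleen not separated. The other 9 Meg3 probe sets were not called between duodenum and liver. Neuron markers stood at 5.42 in duodenum and 5.56 in liver, and acinar markers at 13.06 in duodenum and 6.01 in liver, and their part in the Meg3 level was not tested.

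Snhg11 was higher in brain by both probe sets, by unequal amounts. Probe set 1434292_at read 12.07 and 11.96 in the brain controls and between 4.03 and 4.77 in the 8 other controls. The difference was 7.71 ± 0.15 (SE; limma adjusted p = 8.024e-16). The other controls lie under 5.56, the median of the table, where a signal may be background, so no fold is given. Probe set 1437311_at read 8.40 and 9.08 in the brain controls and between 5.91 and 6.48 in the others, a difference of 2.59 ± 0.18 (SE; limma adjusted p = 1.846e-09). Neither probe set overlapped between brain and the other tissues, and the share over all probe sets was not counted here either. Among the others, 1434292_at separated duodenum (4.77 and 4.74) from liver (4.25 and 4.10), by 0.58 ± 0.19 (SE; limma adjusted p = 0.03059). That call was lost without any one of these 4 arrays.

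Neat1 ran the other way. By 1428083_at the brain controls read 8.90 and 9.86, under the lowest of the 8 other controls at 10.52, with a median of 11.66 and a highest of 12.93. Brain was lower by 2.19 on the log2 scale, a change of -2.19 ± 0.25 (SE; limma adjusted p = 1.066e-06), which is a 4.56-fold lower signal. The order of the control means was duodenum at 12.60, bone marrow at 11.88, spleen at 11.28, liver at 10.53 and brain at 9.38. Of the 4 neighbouring steps only that between liver and brain was called (limma adjusted p = 0.007266), and it was lost without the first brain control array. The ends of the order were further apart, with brain below duodenum by -3.22 ± 0.31 (SE; limma adjusted p = 1.863e-07). The second probe set, 1442881_at, showed none of this. It read 6.45 and 6.95 in the brain controls and between 6.62 and 7.45 in the others, a difference of -0.16 ± 0.17 that was not called. Acinar markers are also highest in duodenum, and their part in the Neat1 level was not tested.

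Malat1 was higher in brain than the mean of the other tissues by 5 of 7 probe sets, by smaller amounts than Meg3. Of the 7, 5 were called higher in brain than in duodenum and 0 lower. Against bone marrow 5 were called higher and 1 lower. Only 1 was called higher in brain than in liver and 0 lower, and against spleen 0 were called higher and 1 lower. By most of its probe sets Malat1 was thus not separated between brain and liver or between brain and spleen. Its brightest probe set, 1418189_s_at, read 12.42 and 11.29 in the brain controls, against a lowest of 9.04, a median of 11.13 and a highest of 12.12 in the others, so the groups overlap. The difference was 0.99 ± 0.39 (SE; limma adjusted p = 0.04947) and was 0.43 without the first brain control. Its call was lost without any one of 10 of the 20 arrays, which were that one, both IRP1 arrays and the second control of duodenum and of liver, both controls of spleen and the first control of bone marrow. Probe set 1452378_at read 8.81 and 8.76 in the brain controls and between 6.23 and 8.73 in the others. By this probe set brain was not called against liver, at 0.25 ± 0.34 (SE), or against spleen, at 0.48 ± 0.34 (SE). Its call against the mean of the other tissues, at 1.24 ± 0.27 (SE; limma adjusted p = 0.001148), held without each of the 20 arrays. Calls of 1438403_s_at, 1418188_a_at and the dim 1427285_s_at were lost without 1, 5 and 8 of the arrays. The order by 1418189_s_at was spleen at 12.07, brain at 11.86, liver at 11.60, bone marrow at 10.44 and duodenum at 9.35, with no neighbouring pair called. Duodenum was separated from spleen by that probe set, spleen being higher by 2.72 ± 0.50 (SE; limma adjusted p = 0.0003663).

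Son was higher in spleen than in liver by 3 of its 7 probe sets, and lower in brain than in spleen by 4 and than in bone marrow by 4. Over all probe sets, 38.4%, 38.2% and 41% were called in these comparisons in either direction. Whether the counts of 7 Son probe sets differ from these shares was not tested. The dim 1456630_x_at is in all of these Son counts. The dim 1439074_a_at is in that of brain against spleen, and the dim 1420951_a_at in that of brain against bone marrow. The brightest Son probe set, 1420952_at, read 11.21 and 9.98 in the brain controls. It read between 9.65 and 10.96 in the others, with no call in brain or between neighbours. By this probe set spleen was also not called against liver, at 0.85 ± 0.39 (SE). By 1435862_at the spleen controls read 9.63 and 9.71, against 8.02 and 7.35 in liver, a difference of 1.99 ± 0.29 (SE; limma adjusted p = 3.68e-05). By 1437924_at they read 9.28 and 9.22, against 8.07 and 7.42 in liver, a difference of 1.51 ± 0.21 (SE; limma adjusted p = 2.155e-05). Spleen and liver did not overlap by either of them. These are 2 arrays against 2, and the share of all probe sets without such overlap was not counted. Both Son probe sets called lower in brain than the mean of the other 4 tissues, 1456630_x_at at -0.87 and 1439074_a_at at -0.66, were dim.

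Nipbl was lower in brain by 3 of 5 probe sets. Probe set 1437158_at read 8.17 and 7.41 in the brain controls, against a lowest of 7.86, a median of 8.66 and a highest of 9.62 in the others, a difference of -0.95 ± 0.26 (SE; limma adjusted p = 0.00585). The brightest, 1453576_at, read 8.60 and 7.71 in the brain controls and between 7.92 and 9.82 in the others, a difference of -0.74 ± 0.24 (SE; limma adjusted p = 0.01825). Brain overlapped the other tissues by both, and both calls were lost without the second brain control array, at -0.56 and -0.30. Against spleen alone the brain signal of 1453576_at was lower by -1.48 ± 0.30 (SE; limma adjusted p = 0.0007855), with spleen controls at 9.45 and 9.82. The third, 1442103_at, differed by -0.70 ± 0.26 (SE; limma adjusted p = 0.0366) and was lost without the second control of duodenum, liver or bone marrow or either brain control.

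Wnk1 was not called in brain by any of its 3 probe sets, whose differences were 0.25, 0.21 and -0.29, although with quantile normalization 1433676_at was called higher at 0.50 (limma adjusted p = 0.002519). Its brightest, 1433676_at, read 12.46 and 12.93 in spleen, against 11.25 and 10.57 in liver, a difference of 1.79 ± 0.29 (SE; limma adjusted p = 9.382e-05). The order by this probe set was spleen at 12.70, bone marrow at 12.55, brain at 12.14, duodenum at 11.39 and liver at 10.91, with no neighbouring pair called. By 1436746_at duodenum was the lowest, at 6.55 and 6.18, against 8.37 and 7.79 in liver, the next tissue up. Liver was higher there by 1.72 ± 0.35 (SE; limma adjusted p = 0.001286).

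**Figure D2:**
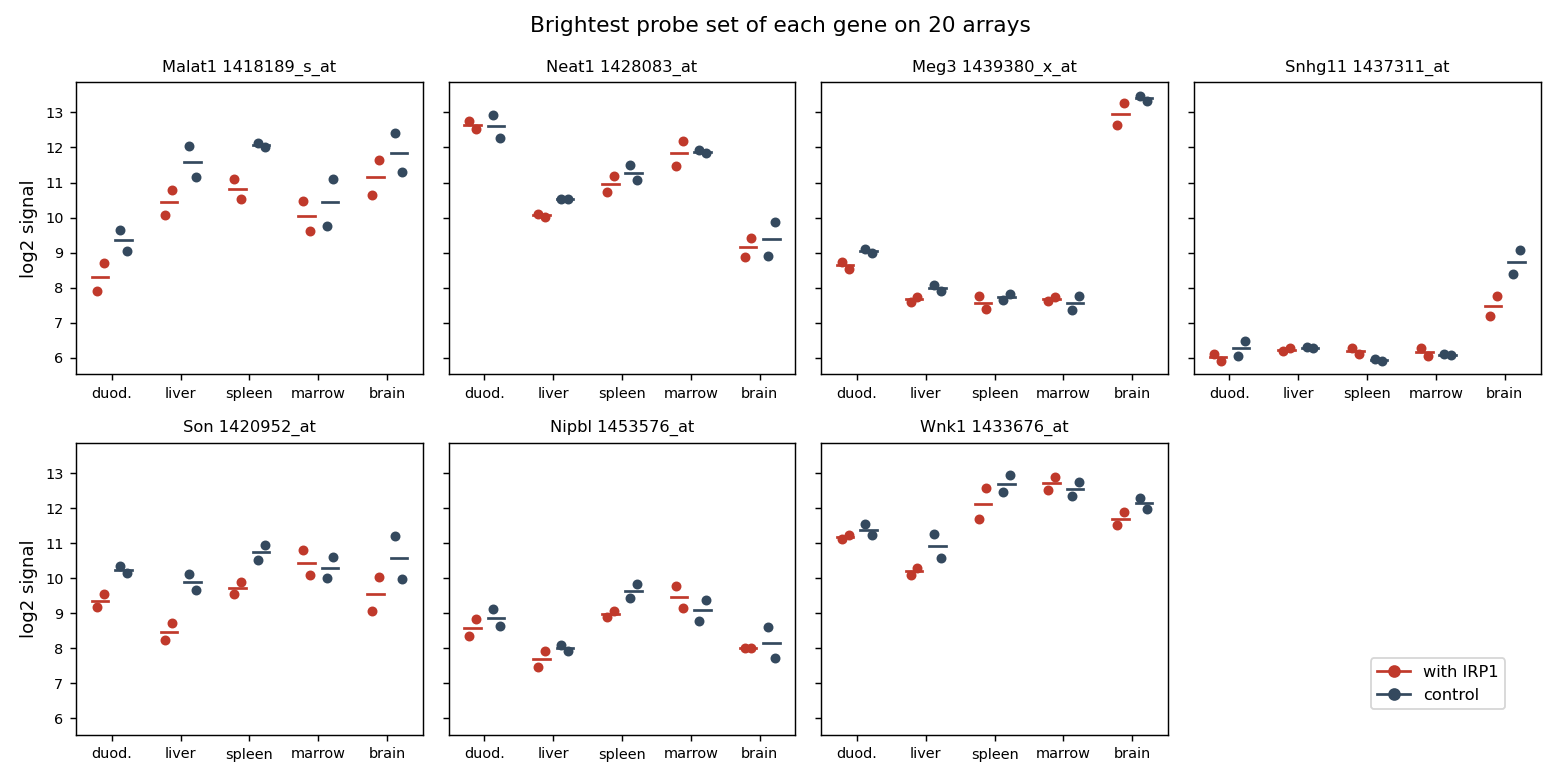
Log2 signal (y axis) of the brightest probe set of each gene in the 20 arrays, by tissue (x axis), with IRP1 arrays in red left of control arrays in blue; points are arrays and bars are means of 2. The control means of Meg3 are 13.40 in brain and at most 9.04 in the other tissues, while that of Neat1 is lowest in brain at 9.38.

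Probe sets of 1 gene did not always order the tissues alike. In 6 of the 70 combinations of a gene and a tissue pair (8.57%), 1 probe set was called higher and another lower. Over all 9010 genes with at least 2 probe sets the share was 2.99%. The 6 combinations came from Malat1, Nipbl and Wnk1, 42.9% of the 7 genes, against 17.5% of all such genes. Genes with more probe sets have more chances of such a pair. The count was 3 without the first duodenum control array and 2 without the second liver control array, and 2 with values under the median of the table set to it.

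Malat1 gave 3 of these combinations. Between liver and duodenum, 1438403_s_at read 9.05 and 7.97 in liver, against 6.20 and 6.19 in duodenum, a difference of 2.31 ± 0.46 (SE; limma adjusted p = 0.001048), and 1452378_at, 1418189_s_at and 1418188_a_at were called the same way at 2.12, 2.25 and 1.97. Probe set 1429060_at read 8.98 and 8.58 in liver, against 9.67 and 9.27 in duodenum, a difference of -0.69 ± 0.21 (SE; limma adjusted p = 0.02302). That lower call was lost without the first duodenum control or the second liver control. Between bone marrow and liver the same probe set was higher in bone marrow by 2.06 ± 0.21 (SE; limma adjusted p = 6.277e-07), where 1452378_at was lower by -1.61 ± 0.34 (SE; limma adjusted p = 0.001283), and both calls held without each of the 20 arrays. Between brain and bone marrow 1429060_at differed by -0.59 ± 0.21 (SE; limma adjusted p = 0.03646), against 1.86 ± 0.34 for 1452378_at (SE; limma adjusted p = 0.0002792). The lower call was lost without the second bone marrow control or either brain control.

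The Nipbl pair lay between liver and duodenum, where 1430309_at differed by 0.92 ± 0.24 (SE; limma adjusted p = 0.007027), while 1453576_at and 1443992_at differed by -0.87 and -1.08 (limma adjusted p = 0.0417 and 0.0133). For Wnk1, spleen was above liver by 1433676_at and 1436746_at, at 1.79 and 0.94, and below it by 1437888_at, at -0.90 ± 0.28 (SE; limma adjusted p = 0.01779). Brain was above liver by 1433676_at, at 1.23, and below it by 1437888_at, at -0.74. Control means of Wnk1 1437888_at in spleen (4.98) and brain (5.14) lie under 5.56, the median of the table, where a signal may be background. So do those of Nipbl 1443992_at in liver (5.04) and Malat1 1418188_a_at in duodenum (4.93). In these combinations the calls of Nipbl 1430309_at, 1443992_at and 1453576_at were lost without 1, 2 and 5 of the arrays, those of Wnk1 1436746_at in spleen and 1437888_at in brain without 11 and 13, and that of 1437888_at in spleen without 2. Over the 20 arrays, the correlation of a gene's other probe sets with its brightest one was between 0.93 and 0.99 for Meg3 and 0.92 for Snhg11. It was between 0.23 and 0.95 for Malat1, 0.07 for Neat1, between -0.23 and 0.71 for Son, between 0.39 and 0.83 for Nipbl, and 0.68 and -0.54 for Wnk1. These values describe arrays that share tissues and reactions, and where each probe set lies on its transcript was not analysed here.

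**Figure D3:**
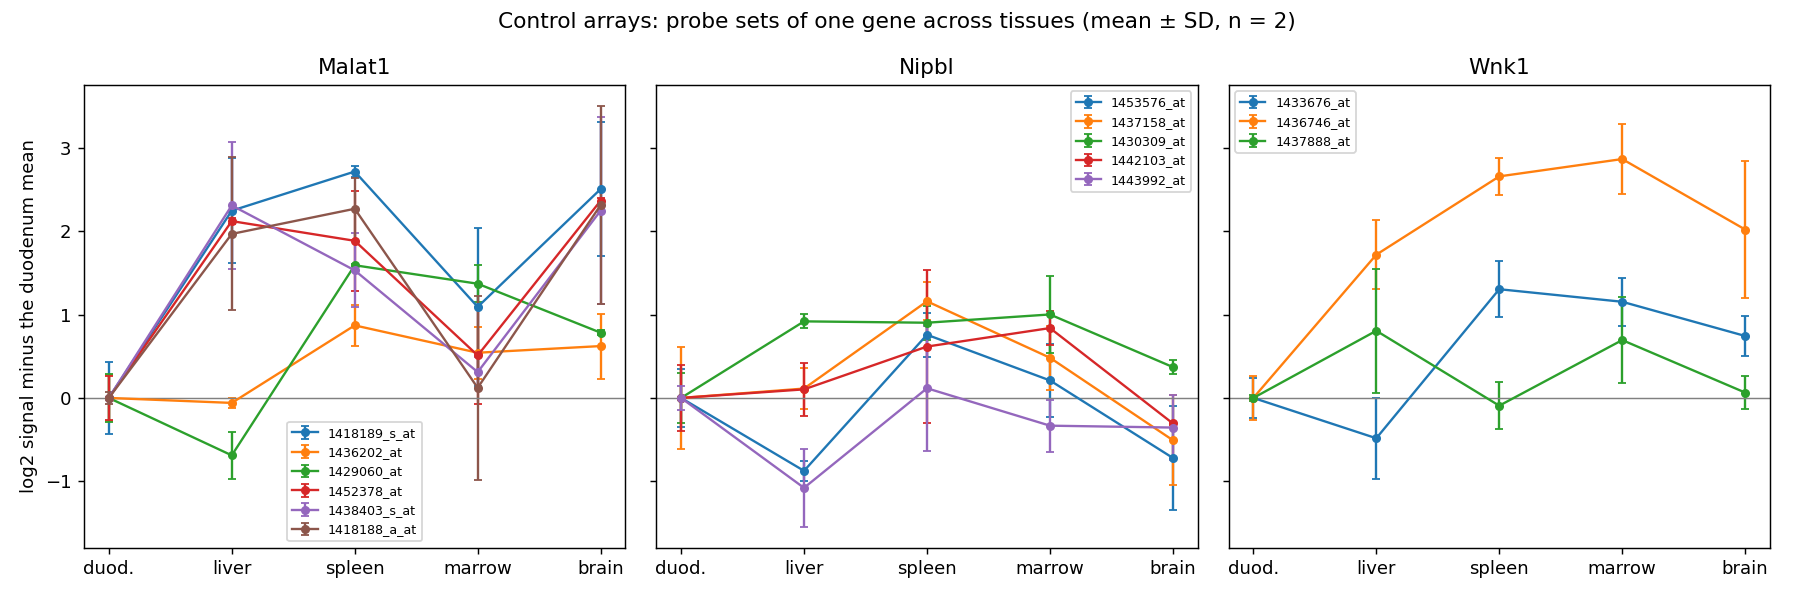
Control signal of each probe set minus its own duodenum mean (y axis, log2) across the 5 tissues (x axis) for Malat1, Nipbl and Wnk1; points are means of 2 arrays and bars are SD, and the dim Malat1 probe set is left out. In liver, Malat1 1429060_at lies below 0 while 4 other Malat1 probe sets lie near 2.

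With IRP1, the probe sets of the 7 genes read mostly a little lower than in the controls. The genes were chosen by this difference. It is given as a description, with no p-value for the 7 genes, and the calls below are counts from the fit over all probe sets that support nothing about them. Averaged over the 5 tissues, 33 of the 37 changes lay below 0, with a median of -0.15, against -0.0056 over all probe sets. At an adjusted p under 0.05 in the fit over all probe sets, 4 were called lower and 0 higher, where 1.03% of all probe sets were called lower and 0.773% higher. The 4 were 1 each of Malat1, Son, Nipbl and Wnk1, and no probe set of Neat1, Meg3 or Snhg11 was among them. For scale, 13 of the 14 probe sets of mRNAs with an established IRE were called higher, with a median change of 1.68, among them Tfrc, the transferrin receptor, at 2.19 ± 0.12 (SE; limma adjusted p = 3.957e-08). The number of lower calls was 1 without the first IRP1 or control array of duodenum or of liver. It was 2 without the second control array of spleen, the second IRP1 or control array of bone marrow, or the first IRP1 array of brain, and 6 without the second control array of brain.

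**Figure D4:**
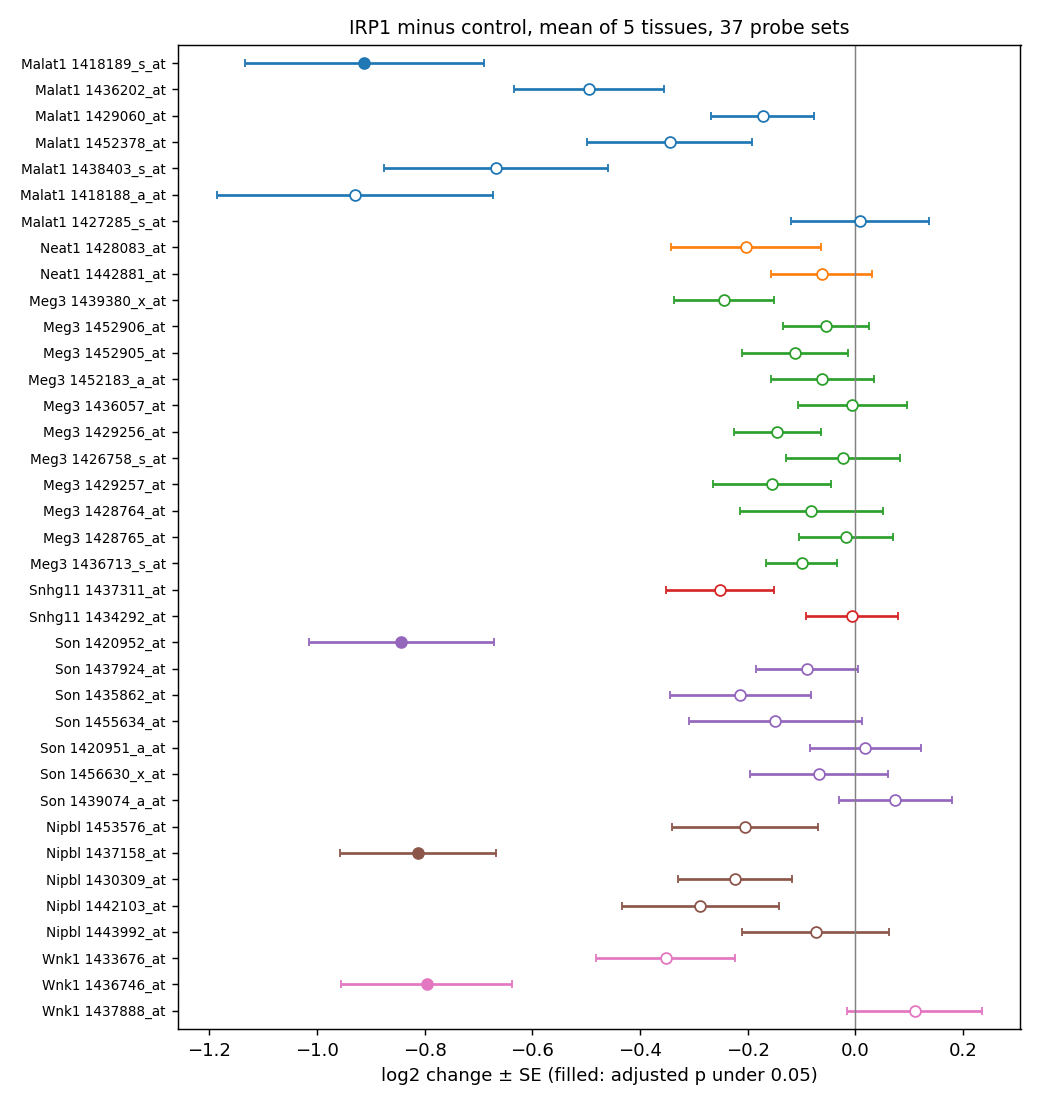
Log2 change with IRP1 minus control, as the mean of 5 tissues (x axis, with its standard error), for each of the 37 probe sets (y axis), filled where called in the fit over all probe sets. The 4 filled points lie between -0.91 and -0.80, and the other probe sets of Son, Nipbl and Wnk1 lie between -0.35 and 0.11.

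Malat1 1418189_s_at read 7.91 and 8.71 with IRP1 in duodenum, against 9.65 and 9.04 in its controls. In liver it read 10.08 and 10.79 with IRP1, against 12.04 and 11.15 in the controls. In spleen the IRP1 arrays read 11.10 and 10.53, against 12.12 and 12.02 in the controls. Both IRP1 arrays lay below both controls in these 3 tissues. In bone marrow they read 10.48 and 9.61, against 9.77 and 11.11 in the controls, and in brain 10.65 and 11.64, against 12.42 and 11.29, so both of these tissues overlap. The mean change was -0.91 ± 0.22 (SE), and it was no longer called without any one of 14 of the 20 arrays. The arrays without which it was still called were the second IRP1 array of duodenum or brain, the first of spleen, the second control of liver or brain, and the first control of bone marrow. Probe set 1418188_a_at had a slightly larger change of -0.93 ± 0.26 (SE) that was not called. It read 5.35 and 5.85 with IRP1 in liver, against 7.55 and 6.25 in the controls, and 6.20 and 5.13 with IRP1 in spleen, against 7.46 and 6.94. The other 5 Malat1 probe sets changed by between -0.67 and 0.01, and 1429060_at by -0.17.

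Son 1420952_at read 9.17 and 9.56 with IRP1 in duodenum, against 10.34 and 10.14 in the controls. In liver it read 8.23 and 8.72 with IRP1, against 10.12 and 9.65, and in spleen 9.56 and 9.89, against 10.51 and 10.96. The reactions did not overlap in these tissues, and the liver change of -1.41 ± 0.39 (SE) was the largest of the 5. In bone marrow the IRP1 arrays read 10.79 and 10.09, against 10.01 and 10.61 in the controls, and in brain 9.06 and 10.03, against 11.21 and 9.98, with overlap in both. The mean change was -0.84 ± 0.17 (SE), and its call was lost without any one of 8 arrays, which were the first IRP1 and control arrays of duodenum and of liver, the second control of spleen, the second IRP1 and control arrays of bone marrow and the first IRP1 array of brain. The other 6 Son probe sets changed by between -0.21 and 0.07.

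Nipbl 1437158_at read 7.42 and 7.81 with IRP1 in duodenum, against 8.73 and 7.86 in the controls. In liver it read 6.87 and 7.47 with IRP1, against 8.59 and 8.23, and in spleen 8.18 and 8.46, against 9.30 and 9.62. In brain the IRP1 arrays read 6.57 and 7.21, against 8.17 and 7.41 in the controls. The reactions did not overlap in these 4 tissues, though the gap was small in duodenum and brain. In bone marrow they did, at 8.67 and 8.69 with IRP1, against 8.51 and 9.05. The mean change was -0.81 ± 0.14 (SE). The other 4 Nipbl probe sets changed by between -0.29 and -0.07, and the brightest, 1453576_at, by -0.21 ± 0.14 (SE).

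Wnk1 1436746_at read 5.45 and 5.78 with IRP1 in duodenum, against 6.55 and 6.18 in the controls. In liver it read 6.87 and 7.12 with IRP1, against 8.37 and 7.79, and in spleen 8.45 and 7.51, against 9.18 and 8.87. In brain the IRP1 arrays read 7.22 and 7.67, against 8.97 and 7.80 in the controls. These 4 tissues show no overlap. In bone marrow the reactions overlapped, at 9.04 and 9.10 with IRP1, against 8.94 and 9.52. The mean change of -0.80 ± 0.16 (SE) lost its call without the first IRP1 or control array of duodenum or of liver. The brightest Wnk1 probe set, 1433676_at, changed by -0.35 ± 0.13 (SE), and 1437888_at by 0.11 ± 0.13 (SE), neither called.

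**Figure D5:**
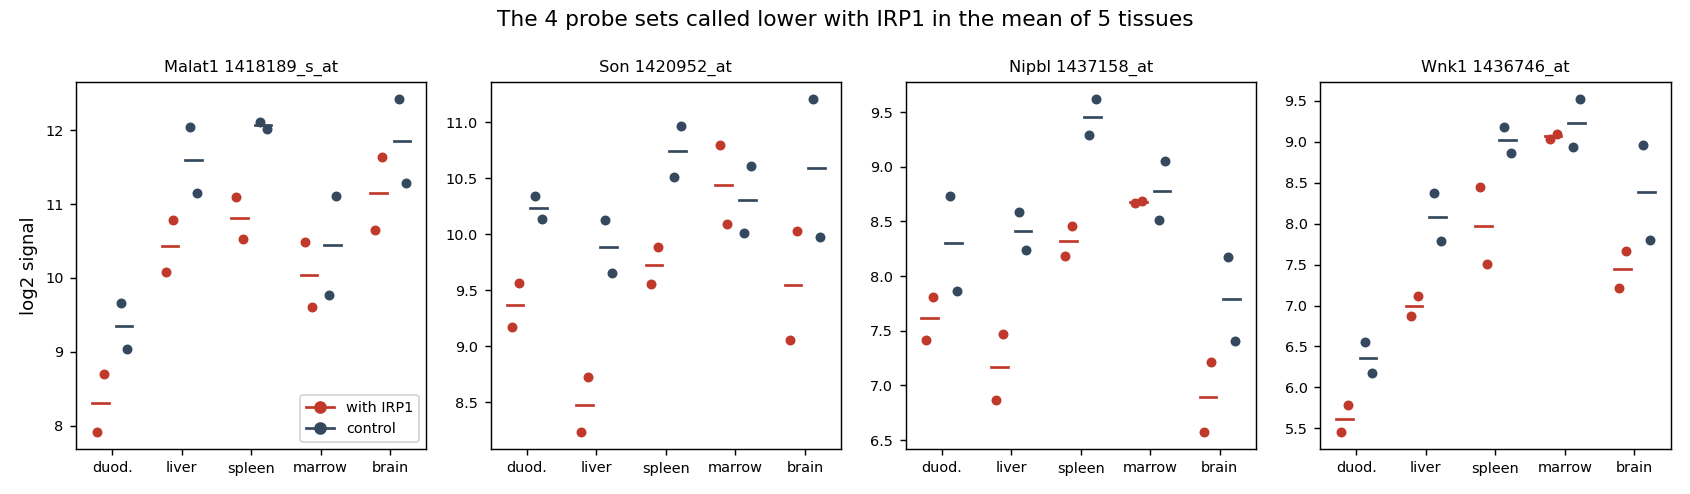
Log2 signal (y axis) of the 4 probe sets called lower with IRP1 in the mean of 5 tissues, by tissue (x axis), with IRP1 arrays in red left of control arrays in blue; points are arrays and bars are means of 2, and each panel has its own axis. In duodenum, liver and spleen both IRP1 arrays lie below both controls in all 4 panels, and in bone marrow they overlap in all 4.

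These 4 probe sets often moved in the same direction between replicate arrays. The first minus the second array had the same sign for all 4 in 7 of the 10 groups, a description of probe sets chosen after their values were seen. How often other sets of 4 probe sets do so was not counted, so this is not shown to be particular to them. In the brain controls, for example, the first array exceeded the second by 1.13 for Malat1, 1.23 for Son, 0.77 for Nipbl and 1.16 for Wnk1. The difference between IRP1 and control in the actin 3' minus 5' measure was -0.27 in duodenum, -0.12 in liver, 0.34 in spleen, 0.13 in bone marrow and -0.09 in brain. Its part in the change was not tested.

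Neat1 1428083_at read 12.76 and 12.53 with IRP1 in duodenum, against 12.93 and 12.27 in the controls, and 11.48 and 12.19 in bone marrow, against 11.92 and 11.83. In spleen it read 10.72 and 11.19, against 11.49 and 11.06, and in brain 8.87 and 9.43, against 8.90 and 9.86. The reactions overlapped in these 4 tissues. In liver they did not, at 10.10 and 10.02 with IRP1, against 10.52 and 10.54. Both Neat1 changes in the mean of tissues were small, at -0.20 and -0.06, and their difference from those of Malat1 was not tested.

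In brain, where Meg3 and Snhg11 had their highest signals, both also read lower with IRP1. Meg3 1439380_x_at read 12.65 and 13.27 with IRP1, against 13.48 and 13.32 in the brain controls, and 1429256_at read 11.74 and 12.06, against 12.41 and 12.50. All 11 Meg3 changes in brain lay below 0, between -0.90 and -0.24, and both IRP1 arrays lay below both controls for 10 of the 11. Snhg11 1437311_at read 7.18 and 7.76 with IRP1, against 8.40 and 9.08, and 1434292_at read 11.52 and 11.76, against 12.07 and 11.96. The Snhg11 1437311_at change of -1.27 ± 0.22 (SE) was the only probe set of the 37 called in any 1 tissue, where 0.0377% of all probe sets were called lower in brain, and its call was kept without 6 of the 20 arrays (both controls of duodenum, both IRP1 arrays of spleen, the first control or the second IRP1 array of brain). In single tissues the shares of all probe sets called lower were 0.0244% in duodenum, 0.0933% in liver, 0.0333% in spleen and 0.00444% in bone marrow. The shares called higher were 0.0799% in duodenum, 0.091% in liver, 0.0688% in spleen, 0.127% in bone marrow and 0.0866% in brain. Without the second IRP1 array of brain 2 such calls were made. Probe sets of 1 RNA are no replicates of the reaction, so the Meg3 count is 1 gene on 4 arrays.

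Across the 37 probe sets, both IRP1 arrays lay below both controls for 16 in duodenum, 17 in liver, 12 in spleen, 3 in bone marrow and 20 in brain. The shares over all probe sets were 21.6% in duodenum, 26% in liver, 22.1% in spleen, 11.8% in bone marrow and 16.9% in brain. Both lay above for 3 in duodenum (16.6% of all), 3 in liver (19.2%), 5 in spleen (17.6%), 5 in bone marrow (19%) and 0 in brain (16.7%). The median change of the 37 was -0.15 in duodenum, -0.28 in liver, -0.07 in spleen, 0.06 in bone marrow and -0.43 in brain. Over all probe sets the medians were -0.02 in duodenum, -0.02 in liver, -0.0051 in spleen, 0.05 in bone marrow and -0.02 in brain. The spread (SD) of all values on an array averaged 2.23 with IRP1 and 2.23 in the controls in duodenum. It was 1.93 and 2.05 in liver, 2.09 and 2.20 in spleen, 2.19 and 2.12 in bone marrow and 2.04 and 2.13 in brain. The part of this spread in the changes with IRP1 was not tested.

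The counts of the lists that follow are to be read against all probe sets, of which 19.6% were higher and 25.3% lower in brain, and 0.773% were called higher and 1.03% lower with IRP1, at a median IRP1 change of -0.0056. Among 23 other long noncoding RNAs measured by 65 probe sets, 1 was called lower with IRP1 and 0 higher, at a median change of -0.02. It was Tug1, a widely expressed noncoding RNA, at -0.51 ± 0.12 (SE; limma adjusted p = 0.04311). In brain 19 of the 65 (29.2%) were higher and 15 (23.1%) lower than in the other tissues. By their brightest probe sets the largest differences were those of Snhg14 at 6.28, Rian at 5.70 and Miat at 5.20. Rian shares the Dlk1-Dio3 region with Meg3, and 6 of the 8 probe sets of that region were higher in brain and 0 lower, while 0 were called with IRP1 in either direction.

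Paraspeckle proteins, the partners of Neat1, had 9 of 55 probe sets (16.4%) higher in brain and 14 (25.5%) lower, shares near those of all probe sets, with Ubap2l at -1.51, Nudt21 at -1.18 and Tardbp at -1.11 by their brightest probe sets. With IRP1, 2 of the 55 were called lower and 0 higher, Ewsr1 by its brightest probe set at -0.51 ± 0.12 (SE; limma adjusted p = 0.04454). Splicing proteins of nuclear speckles, where Son and Malat1 collect, had 6 of 107 (5.61%) higher in brain and 22 (20.6%) lower, led by Srsf3 at -1.40. With IRP1, 3 of the 107 were called higher and 1 lower, and the higher ones included Pnn at 0.86 ± 0.19 (SE; limma adjusted p = 0.0339). Cohesin and its regulators, the partners of Nipbl, had 2 of 40 (5%) higher in brain and 15 (37.5%) lower. Sgo1, a protector of cohesin in dividing cells, was at -2.56 and Esco2 at -2.09, while Pds5b was at 1.99. With IRP1, 1 of the 40 was called lower and 0 higher, Pds5a at -0.46 ± 0.08 (SE; limma adjusted p = 0.007347).

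Genes of the WNK pathway had 20 of 37 probe sets (54.1%) higher in brain and 3 (8.11%) lower. The chloride exporter of neurons Slc12a5 was at 6.25 and the kinase Wnk3 at 3.53, while the cotransporter Slc12a7 was at -3.14. With IRP1, 1 of the 37 was called lower (2.7%) and 0 higher, at a median of -0.08. Of 38 other genes with very long mRNAs, measured by 120 probe sets, 22 probe sets (18.3%) were higher in brain and 11 (9.17%) lower, with the calcium channel Ryr2 at 5.71, Nbea at 5.03 and Apob, an apolipoprotein of liver and gut, at -4.24. With IRP1, 4 of the 120 were called lower (3.33%) and 0 higher, at a median of -0.09, against 1.03% lower and a median of -0.0056 over all probe sets. The dynein heavy chain Dync1h1 was among them at -0.60 ± 0.13 (SE; limma adjusted p = 0.03396).

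The genes most like each of the 7 over the 20 arrays, by Pearson's r with the brightest probe set, were Tgs1 (0.94), Atrx (0.91) and Ppp2r5e (0.91) for Malat1. For Neat1 they were Naip6, Stxbp2 and Pgd, each at 0.97. For Meg3 they were Rab3c, Snap25 and Mtcl1, each at 0.99, and for Snhg11 Srcin1 (0.97), Olig2 (0.97) and Map6 (0.96). For Son they were Ubn2, Phf14 and Ppp6r3, each at 0.91. For Nipbl they were Dnajc2 (0.98), Sf3b1 (0.96) and Ddx5 (0.95), and for Wnk1 Eftud2 (0.99), Tprgl (0.97) and Ccnt2 (0.97). The arrays share 5 tissues, so these values mostly rank genes by tissue pattern.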

How the data were processed

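RNA recovered from the immunoprecipitates (120 ng) was amplified, labelled and hybridized to Affymetrix Mouse430_2 arrays, per the labels' protocols. The authors deposited a table of log2 signals for the probe sets of each array. Per the submitters' processing notes, the tools were RMA and MAS5 with GCOS; which of them made the table is not stated, and the values have the form RMA gives. The number of arrays limits the precision. Of 45101 probe sets, 64 Affymetrix controls were left out and 45037 fitted, and 34945 have 1 gene symbol, 932 several and 9160 none.

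The 20 arrays entered a single limma 3.58.1 model (lmFit and eBayes, R 4.3.3) of 10 groups, tissue by reaction, with 10 residual and 6.14 prior degrees of freedom. Two-sided p-values were adjusted by Benjamini-Hochberg over all probe sets within each contrast, and a call needs an adjusted p under 0.05. The fit was tested on simulated data. Array values were printed for each gene's brightest probe set and for that with the largest mean IRP1 change, and others where probe sets of a gene are contrasted. From each other list up to 3 genes with the largest differences among those called were named, by their brightest probe sets. The genes and lists were chosen with earlier results of these data known. Alternatives were quantile normalization, median centring, a filter and a floor on dim values, array weights, trended and robust eBayes, leaving out arrays, a replicate block, IRP1 arrays in place of controls, and brain against bone marrow. Figures used Python 3.11.15 and matplotlib 3.10.9.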

Additional observations from a re-analysis of the deposited data

How the results depend on the processing

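The numbers of probe sets that differed among tissues and that were higher in brain stayed within 1.5 times their values under every alternative run, at 25 to 34 and 15 to 19. With values under the median of the table set to it, lower calls in brain numbered 2, opposite calls 2, lower calls with IRP1 in the mean of tissues 2 and in single tissues 3. Against bone marrow alone, which shares diet and age with brain, 18 were higher in brain and 10 lower. Without the 3 arrays with low hybridization controls, lower calls with IRP1 numbered 2 in the mean and 0 in single tissues, and with array weights 0 in single tissues. By the brightest probe set of each gene, 2 of the 7 were called lower with IRP1. Leaving out 1 array at a time gave 2 to 7 opposite calls, 1 to 6 lower calls in brain, 1 to 6 lower calls with IRP1 in the mean and 0 to 2 in single tissues. Differences that were not called as deposited turned sign for Son and Wnk1. Without 1 array, the brain difference lay between -0.32 and 0.91 for Son 1420952_at and between -0.37 and 0.79 for Wnk1 1436746_at, the negative values being those without the first brain control. Against bone marrow, brain differed by -0.41 for Wnk1 1433676_at and by -0.85 for 1436746_at. The cause of these shifts was not tested.

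The replicate numbers were not taken as pairs, since same-numbered arrays correlated above 0.1 in their deviations from the group means in 3 of the 5 tissues only, at 0.27 in duodenum, -0.07 in liver, 0.53 in spleen, -0.04 in bone marrow and 0.12 in brain. In spleen both second arrays also had low hybridization controls. With a replicate block as a fixed term, 3 probe sets were called lower with IRP1 in the mean, and with a random replicate block 17 were higher and 6 lower in brain.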
